A study of Mus musculus with 6 samples.

Results

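The epidermal growth factor (EGF) family was examined in mouse primary fibroblast cultures given the chemokine CXCL3 for 48 h, with control cultures of the same duration as the comparison. The study, by its title, concerns CXCL3 from inflammatory cells and its action on fibroblasts in pancreatic cancer. The set holds 10 genes, 7 for ligands (Areg, Ereg, Hbegf, Btc, Tgfa, Epgn and Nrg1) and 3 for receptors (Egfr, Erbb2 and Erbb3). They were taken by family membership out of 51912 genes in the deposited expression table, with earlier results of these data known. RNA was sequenced from 3 CXCL3 libraries and 3 control libraries, all labelled as primary fibroblast cells with an age of 6 weeks. The labels give no genotype, strain, organ of origin or dose of CXCL3, and do not say whether the replicates are separate cultures or animals. So each p-value reflects only how far these libraries spread, which may be technical. Levels are in TPM, transcript abundances scaled for transcript length and to a common library sum, so that genes can be compared with each other. TPM keeps no library depth, so depth is unknown and no counting interval is given.

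Ligands of this family are made as membrane-anchored precursors and are cut free by metalloproteases of the ADAM family. They bind EGFR or the related receptors ERBB3 and ERBB4, which then pair with each other or with ERBB2, a receptor with no known ligand of its own. The paired receptors signal through RAS, ERK and other kinases. In connective tissue such ligands are known from wound repair and inflammation, where fibroblasts, macrophages and epithelial cells exchange them.

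The cultures expressed a restricted set of the family, led by epiregulin and heparin-binding EGF on the ligand side and by Egfr on the receptor side. None of the 7 members tested passed the threshold in the comparison of CXCL3 with control (limma, smallest adjusted p = 0.263, Ereg). Among the members tested, epiregulin, epigen and Erbb2 were higher in all 3 CXCL3 libraries than in any control library. Hbegf was lower in all 3. Groups likewise did not overlap for 17.2% of all genes tested (7.92% higher and 9.31% lower). For epiregulin, epigen and Erbb2, control 1 was the control closest to the CXCL3 libraries.

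Epgn, Ereg, Areg and Btc lie beside each other on chromosome 5. On GRCm38, in the GENCODE M21 annotation, Epgn runs from 91027464 to 91035215, Ereg from 91074622 to 91093646 and Areg from 91139599 to 91148432 on the plus strand. Btc follows on the minus strand, from 91357261 to 91402994. The gaps between neighbouring genes are 39.4 kb, 46.0 kb and 209 kb in this order. The other members lie elsewhere in the genome. Promoter sequences from RefSeq (GRCm38.p6, 250 bases before to 50 bases after the RefSeq start) matched 6 of the 10 members, Ereg not among them. For Epgn the RefSeq start, 91027517, lies 53 bases downstream of the GENCODE start given above. The windows of Epgn, Areg and Btc are shown because these chromosome 5 ligands share a neighbourhood but differ in level. Each is printed 5′ to 3′ on the strand of its gene, and the capitals mark matches to the motifs searched.
Epgn, chr5:91027267-91027566, plus strand: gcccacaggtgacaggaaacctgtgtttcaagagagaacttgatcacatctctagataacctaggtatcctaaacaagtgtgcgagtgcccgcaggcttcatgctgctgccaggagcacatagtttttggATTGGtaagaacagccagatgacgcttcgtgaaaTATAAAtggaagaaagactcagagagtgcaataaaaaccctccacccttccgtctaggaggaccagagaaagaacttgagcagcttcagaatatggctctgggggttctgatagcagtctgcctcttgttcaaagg
Areg, chr5:91139349-91139648, plus strand: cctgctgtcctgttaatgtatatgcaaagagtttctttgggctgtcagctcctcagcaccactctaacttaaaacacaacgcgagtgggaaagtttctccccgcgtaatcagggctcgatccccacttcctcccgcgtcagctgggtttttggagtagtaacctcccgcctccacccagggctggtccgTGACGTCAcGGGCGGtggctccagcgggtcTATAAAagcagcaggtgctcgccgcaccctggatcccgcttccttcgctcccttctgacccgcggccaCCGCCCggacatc
Btc, chr5:91402945-91403244, minus strand: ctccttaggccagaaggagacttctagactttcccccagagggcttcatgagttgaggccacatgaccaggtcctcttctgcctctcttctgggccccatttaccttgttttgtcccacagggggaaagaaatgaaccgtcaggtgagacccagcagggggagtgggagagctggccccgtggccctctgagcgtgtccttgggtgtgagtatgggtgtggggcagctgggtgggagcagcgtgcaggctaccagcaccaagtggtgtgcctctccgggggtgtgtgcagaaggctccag

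The motifs searched on both strands were the AP-1 site TGANTCA, the cyclic AMP response element TGACGTCA, the TATA box TATAAA, the GC box GGGCGG and the CCAAT box CCAAT. No matches of different motifs overlapped in these windows. The Areg window held 1 TGACGTCA, 1 TATAAA and 2 GC boxes. Of 32851 promoter windows of the same length, 1.79% held TGACGTCA, 13.6% TATAAA and 35.7% a GC box. The Epgn window held 1 TATAAA and 1 CCAAT box, the second of which was present in 37.4% of all windows. No match to any of the 5 motifs was found in the Btc window. None of the 3 windows held TGANTCA, which was present in 7.81% of all windows. The GC content was 47.3% for Epgn, 59.3% for Areg and 60.3% for Btc, against a median of 52.7% for all windows.

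Cells other than fibroblasts could supply these ligands, and markers of several types were read from the same libraries. All 10 macrophage markers were tested, and their summed level was 14832 to 14922 TPM with CXCL3 and 15067 to 18076 TPM in controls, most of it from Lyz2. Of the 10, C1qa, a complement gene, was the 1 that passed, where 0.160% of all genes tested did. It was lower with CXCL3 (limma, adjusted p = 0.0493). The list went both ways, with 4 positive and 6 negative fold changes. Over all genes tested, groups did not overlap for 7.92% as higher and for 9.31% as lower. In this list they did not overlap for 1 higher gene and 3 lower ones. The higher one was Mrc1, a mannose receptor gene, with 18.05, 16.9 and 16.02 TPM in CXCL3 libraries 1, 2 and 3 and 13.4, 11.3 and 9.8 TPM in control libraries 1, 2 and 3 (log2 fold change 0.53; limma, adjusted p = 0.248), and C1qa, C1qb and Lyz2 were the lower ones. Adgre1, which encodes F4/80, had 455, 458 and 436 TPM with CXCL3 and 507, 363 and 446 TPM in controls. Macrophages are known to make epiregulin and heparin-binding EGF, so levels of Ereg and Hbegf cannot be assigned to one cell type in these cultures, and the part of macrophages in their differences was not tested. Of the 8 fibroblast markers 6 were tested, with a summed level of 1351 to 1444 TPM with CXCL3 and 1391 to 2076 TPM in controls. None passed, with 2 positive and 4 negative fold changes. Dcn was lower in every CXCL3 library than in any control, as 9.31% of all genes tested were. It had 283 to 288 TPM with CXCL3 and 300 to 328 TPM in controls (limma, adjusted p = 0.422). Fap and Lum did not exceed 0.54 TPM and were not tested. Lum had 0.06 to 0.15 TPM with CXCL3 and 0.30 to 0.50 TPM in controls. The macrophage sum exceeded the fibroblast sum in every library, but mostly through Lyz2. Without Lyz2, a summary chosen after the values were seen, the other 9 macrophage markers summed to 1679 to 1717 TPM with CXCL3, above the fibroblast sum in each of these libraries. In control 1 they summed to 1903 TPM, below the fibroblast sum of 2076 TPM, and in controls 2 and 3 to 1807 and 1910 TPM, above it. Epithelial markers, of cells that commonly carry EGFR, ERBB2 and ERBB3, were near 0, with all 8 under the filter and a highest value of 1.10 TPM (Krt14). Cd3e and Cd3d of T cells, and Cpa3 and Fcer1a of mast cells, were listed at 0 in all 6 libraries. The 5 markers of T and B cells did not exceed 0.14 TPM (Cd79a), and the 4 of mast cells 0.17 TPM (Kit). Some single markers of other types were not low. Wt1, of mesothelial cells, had 29.5 to 31.6 TPM with CXCL3 and 22.1 to 33.3 TPM in controls, while the other 4 mesothelial markers did not exceed 0.86 TPM. S100a8, of neutrophils, had 529 to 582 TPM with CXCL3 and 552 to 669 TPM in controls. Csf3r, also of neutrophils, had 2.87 to 5.0 TPM with CXCL3 and 2.3 to 3.13 TPM in controls, with overlapping groups. S100a9, Cxcr2 and Ly6g did not exceed 0.71, 0.12 and 0.08 TPM. Of 5 endothelial markers, Kdr was tested and had 0.71 to 1.32 TPM over the 6 libraries, with overlapping groups. The other 4 fell below the filter, with a highest value of 1.6 TPM (Cdh5). Actg2, of smooth muscle, had 12.3 ± 1.84 TPM with CXCL3 and 18.3 ± 0.93 TPM in controls (SD, n = 3 each; log2 fold change -0.55; limma, adjusted p = 0.217), and Des 12.6 ± 0.20 TPM with CXCL3 and 13.5 ± 0.64 TPM in controls. Both had lower values in all 3 CXCL3 libraries than in any control, as 9.31% of all genes tested did. The other 3 markers of smooth muscle and pericytes, Cspg4, Myh11 and Rgs5, did not exceed 1.28 TPM, and their groups overlapped. The part of such cells in the member differences was not tested. In bulk RNA, fewer cells of a type and less RNA per cell cannot be told apart.

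The controls were less alike than the CXCL3 libraries. The first principal component of all genes tested held 52.9% of the variance and placed controls 2 and 3 at 36.6 and 26.6, apart from CXCL3 libraries 1 to 3 (-18.7 to -9.39) and control 1 (-19.2). Across genes, the Spearman correlation between transcript length and a library's departure from the 6-library mean was 0.20 to 0.40 in the CXCL3 libraries, 0.45 in control 1, -0.50 in control 2 and -0.48 in control 3.

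Ereg, which encodes epiregulin, a ligand of EGFR and ERBB4, had the highest level of the 10 genes, above 86.4% of all genes tested. It stood at 90.4, 91.0 and 84.7 TPM in CXCL3 libraries 1, 2 and 3 and at 76.2, 56.6 and 65.9 TPM in control libraries 1, 2 and 3. The lowest CXCL3 library lay above the highest control library, control 1. The means were 88.7 ± 3.46 TPM with CXCL3 and 66.2 ± 9.77 TPM in controls (SD, n = 3 each). The log2 fold change was 0.43 ± 0.11 (SE, on log2(TPM + 1)), with a 95% interval of 0.17 to 0.69, and it did not pass (limma, adjusted p = 0.263). Without control 1 it passed at 0.53 (limma, adjusted p = 0.00668), without controls 2 and 3 it was 0.22 (limma, adjusted p = 0.222), and over all 18 alternative settings the adjusted p ranged from 0.00668 to 0.787. Ereg overlaps the antisense gene Gm19610 by 152 bases. Gm19610 had 7.31, 8.38 and 7.14 TPM with CXCL3 and 10.8, 8.52 and 9.87 TPM in controls, and use of strand in counting, not given in the sources used here, would decide whether their reads were kept apart.

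Hbegf, which encodes heparin-binding EGF-like growth factor, a ligand of EGFR and ERBB4, was the second most abundant ligand and lies on chromosome 18 (36504927 to 36515805, minus strand). Its level was 37.8, 35.7 and 37.5 TPM in CXCL3 libraries 1, 2 and 3 and 47.1, 42.2 and 40.9 TPM in control libraries 1, 2 and 3. All CXCL3 values were below all control values, the only tested member with this order. The means were 37.0 ± 1.10 TPM with CXCL3 and 43.4 ± 3.25 TPM in controls (SD, n = 3 each), a log2 fold change of -0.22 ± 0.09 (SE; 95% interval -0.42 to -0.02; limma, adjusted p = 0.404). Over the 18 alternative settings the value ran from -0.34 to -0.16, and the adjusted p (limma) lay between 0.0811 and 0.796. As the groups did not overlap, only settings that rescale the libraries could have turned the sign. These gave -0.30 with median-of-ratios scaling, -0.27 with quantile normalization and -0.26 with correction for transcript length and GC content.

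Epgn, which encodes epigen, a weakly binding ligand of EGFR, had 10.1, 10.8 and 12.6 TPM in CXCL3 libraries 1, 2 and 3 and 8.95, 6.41 and 8.20 TPM in control libraries 1, 2 and 3. The groups did not overlap, and control 2 was the lowest library. The means were 11.2 ± 1.25 TPM with CXCL3 and 7.85 ± 1.31 TPM in controls (SD, n = 3 each). The log2 fold change of 0.47 ± 0.15 (SE; 95% interval 0.11 to 0.82) did not pass (limma, adjusted p = 0.349). It passed without control 1 at 0.56 (limma, adjusted p = 0.0251), the smallest of a range up to 0.796 over the 18 alternative settings. Without controls 2 and 3 it was 0.29 (limma, adjusted p = 0.403). After correction of every library for transcript length and GC content it was still 0.47.

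**Figure D1:**
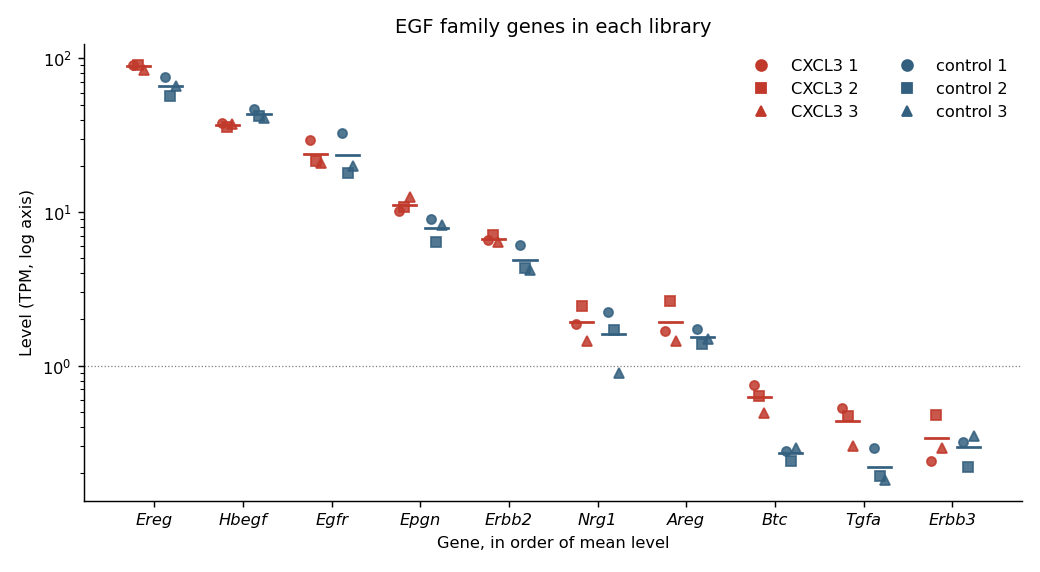
Level of each of the 10 EGF family genes in TPM (log axis), with red symbols for the CXCL3 libraries, blue symbols for the control libraries and a short line at each group's mean (n = 3 each). Ereg is highest, at 84.7 to 91.0 TPM with CXCL3 and 56.6 to 76.2 TPM in controls, and Btc, Tgfa and Erbb3 lie under the dotted line at 1 TPM in every library.

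Areg, which encodes amphiregulin, a ligand of EGFR, was scarce although it lies next to Ereg. It had 1.68, 2.65 and 1.45 TPM in CXCL3 libraries 1, 2 and 3 and 1.72, 1.39 and 1.48 TPM in control libraries 1, 2 and 3. The groups overlapped, and CXCL3 library 2 stood above the other 5 libraries. Nrg1, which encodes neuregulin 1, a ligand of ERBB3 and ERBB4, had 1.86, 2.45 and 1.45 TPM with CXCL3 and 2.24, 1.7 and 0.89 TPM in controls, again overlapping. The log2 fold changes were 0.19 ± 0.19 for Areg and 0.18 ± 0.24 for Nrg1 (SE; limma, adjusted p = 0.624 and 0.706). Their 95% intervals, -0.25 to 0.63 for Areg and -0.37 to 0.74 for Nrg1, leave changes of either sign possible. Without control 3 the value for Nrg1 was -0.033, and without controls 2 and 3 it was -0.16.

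Btc, which encodes betacellulin, and Tgfa, which encodes transforming growth factor alpha, both ligands of EGFR, stayed under 1 TPM and were not tested. Btc had 0.75, 0.63 and 0.49 TPM in CXCL3 libraries 1, 2 and 3 and 0.28, 0.24 and 0.29 TPM in control libraries 1, 2 and 3. Tgfa had 0.53, 0.47 and 0.30 TPM with CXCL3 and 0.29, 0.19 and 0.18 TPM in controls. In both genes the CXCL3 libraries lay above the controls, for Tgfa by 0.30 against 0.29 TPM at the nearest. With no filter on low values neither passed (limma, adjusted p = 0.422 for Btc and 0.618 for Tgfa). At such levels a few reads decide a value, and the depth that would show how many is unknown.

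Of the receptors, Egfr, which encodes the receptor bound by most of the ligands named here, was the most abundant. It had 29.3, 21.5 and 20.8 TPM in CXCL3 libraries 1, 2 and 3 and 32.7, 18.0 and 20.1 TPM in control libraries 1, 2 and 3. Library 1 was the highest of its group in both groups, and all CXCL3 values lay inside the control range. The means were 23.9 ± 4.74 TPM with CXCL3 and 23.6 ± 7.95 TPM in controls (SD, n = 3 each). The log2 fold change was 0.05 ± 0.23 (SE; 95% interval -0.49 to 0.59; limma, adjusted p = 0.926), so that the interval spans changes of either sign. Its sign turned negative with median-of-ratios scaling (-0.028), with quantile normalization (-0.034) and with correction for transcript length and GC content (-0.22). The longest annotated Egfr transcript, of 10208 bases, is the longest among the 10 genes.

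Erbb2, the partner receptor without a ligand of its own, had 6.57, 7.06 and 6.39 TPM in CXCL3 libraries 1, 2 and 3 and 6.14, 4.34 and 4.18 TPM in control libraries 1, 2 and 3. The groups did not overlap, but control 1 was closer to the CXCL3 libraries than to the other controls. The means were 6.67 ± 0.35 TPM with CXCL3 and 4.89 ± 1.09 TPM in controls (SD, n = 3 each). The log2 fold change of 0.40 ± 0.16 (SE; 95% interval 0.02 to 0.77) did not pass (limma, adjusted p = 0.422). It passed without control 1 (0.54, limma, adjusted p = 0.0109) and with library weights (0.51, limma, adjusted p = 0.0480), within a range of 0.0109 to 0.811 over the 18 alternative settings. Set against control 1 alone it was 0.10. It shares 9 bases with Mien1 on the other strand, which had 73.4 to 92.8 TPM over the 6 libraries.

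Erbb3, the receptor for neuregulins that has little kinase activity of its own, was nearly silent. It had 0.24, 0.48 and 0.29 TPM in CXCL3 libraries 1, 2 and 3 and 0.32, 0.22 and 0.35 TPM in control libraries 1, 2 and 3, and the groups overlapped. The other genes of the family were low as well. Nrg4 reached 1.45 TPM in 1 CXCL3 library, Nrg2 stayed at or under 0.12 TPM and Erbb4, the remaining receptor, at or under 0.10 TPM, while Nrg3 was listed at 0 in all 6 libraries. Egf itself had 1.23, 0.72 and 0.52 TPM with CXCL3 and 0.39, 0.23 and 0.22 TPM in controls. These values did not overlap, and all 5 genes fell below the filter and were not tested.

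In order of mean level the genes ran Ereg, Hbegf, Egfr, Epgn, Erbb2, Nrg1, Areg, Btc, Tgfa and Erbb3. Within each group, every library's value of a gene lay above every library's value of the next one from Ereg down to Nrg1. Nrg1 and Areg overlapped each other and lay above Btc, Tgfa and Erbb3. Among these lowest genes, Btc lay above Erbb3 with CXCL3, by 0.49 against 0.48 TPM at the nearest, but overlapped it in controls. Tgfa overlapped both of them in each group. The order from Nrg1 to Areg and from Btc to Erbb3 is therefore not resolved.

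Read as a group, 0 of the 7 tested members passed, where 0.160% of all 13139 genes tested did (21 genes; 0.0304% higher and 0.129% lower). At an unadjusted p under 0.05 there were 4 members, Ereg, Epgn and Erbb2 higher and Hbegf lower, where 11.6% of all genes were past that mark. The same 4 were the tested members whose groups did not overlap, 3 higher and 1 lower, beside 17.2% of all genes tested (7.92% higher and 9.31% lower). The untested Btc and Tgfa were also higher without overlap. Of the 7 members, 6 had a positive fold change, or 5 with median-of-ratios scaling, quantile normalization or correction for transcript length and GC content, where Egfr turned negative, and 62.3% of all genes had one. The count was also 5 without control 2 and without CXCL3 library 1, and it was 4 without control 3 and without controls 2 and 3, where Nrg1 was negative too. With values as deposited, the median log2 fold change was 0.19 for the members and 0.07 for all genes. In all 7 members control 1 was the highest control, which held for 62.8% of all genes tested. Without control 1 the members that passed were Ereg, Epgn and Erbb2, 3 of 7, where 32.4% of all genes passed in that setting. With library weights, Ereg and Erbb2 passed, 2 of 7, where 11.0% of all genes did (7.96% higher). A fit without controls 2 and 3, which assumes that the lone control varies like the CXCL3 libraries, called none of the 7 (limma, 2 at an unadjusted p under 0.05).

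**Figure D2:**
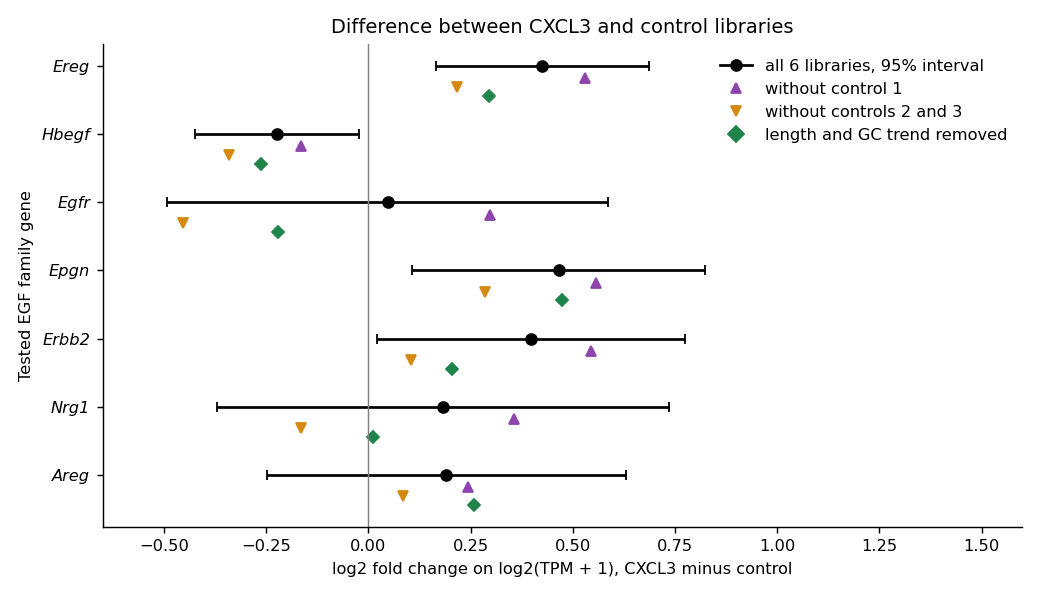
The log2 fold change on log2(TPM + 1), CXCL3 minus control, for the 7 tested EGF family genes, as black points with 95% intervals for all 6 libraries (n = 3 each) and as coloured symbols for 3 alternative settings. Ereg, Epgn, Erbb2 and Areg stay above 0 and Hbegf below 0 in all settings drawn, whereas Egfr lies between -0.45 and 0.30 and Nrg1 between -0.16 and 0.36. For Ereg, Epgn, Erbb2 and Hbegf, whose groups do not overlap, leaving out controls cannot turn the sign. Only the correction for transcript length and GC content could have done so.

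Genes are not independent replicates, so the correlations with transcript length given above are descriptions, and the part of transcript length in the member differences was not tested beyond the fit with a correction for it. In that corrected fit the log2 fold changes were 0.30 for Ereg, 0.21 for Erbb2 and -0.26 for Hbegf. None passed (limma, adjusted p = 0.115, 0.311 and 0.133). At an unadjusted p under 0.05 (limma) there were 4 members, where 2033 of 13114 genes were past that mark in the same fit.

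The balance between ligands was also compared within each library, where a scaling that multiplies all genes of a library alike cancels. A trend with transcript length, which differed between the libraries, does not cancel, and its part in these measures was not tested. The longest annotated transcript has 4128 bases and 39.2% GC for Ereg and 2890 bases and 51.5% GC for Hbegf. The measures were chosen after the values were seen and are given without a test. Ereg made up 63.2%, 63.3% and 61.2% of the summed TPM of the 7 ligands in CXCL3 libraries 1, 2 and 3 and 55.7%, 52.1% and 55.9% in control libraries 1, 2 and 3. Hbegf made up 26.4%, 24.9% and 27.1% with CXCL3 and 34.4%, 38.8% and 34.7% in controls. The ratio of Ereg to Hbegf was 2.39, 2.55 and 2.26 in CXCL3 libraries 1, 2 and 3 and 1.62, 1.34 and 1.61 in control libraries 1, 2 and 3. In these shares and in the ratio, control 1 lay with control 3 and not with the CXCL3 libraries. Ereg, Hbegf and Epgn together accounted for 95.7% to 97.3% of the sum with CXCL3 and 96.7% to 97.6% in controls. The sum itself was 142 ± 2.87 TPM with CXCL3 and 121 ± 14.3 TPM in controls (SD, n = 3 each), with control 1 at 137 TPM.

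**Figure D3:**
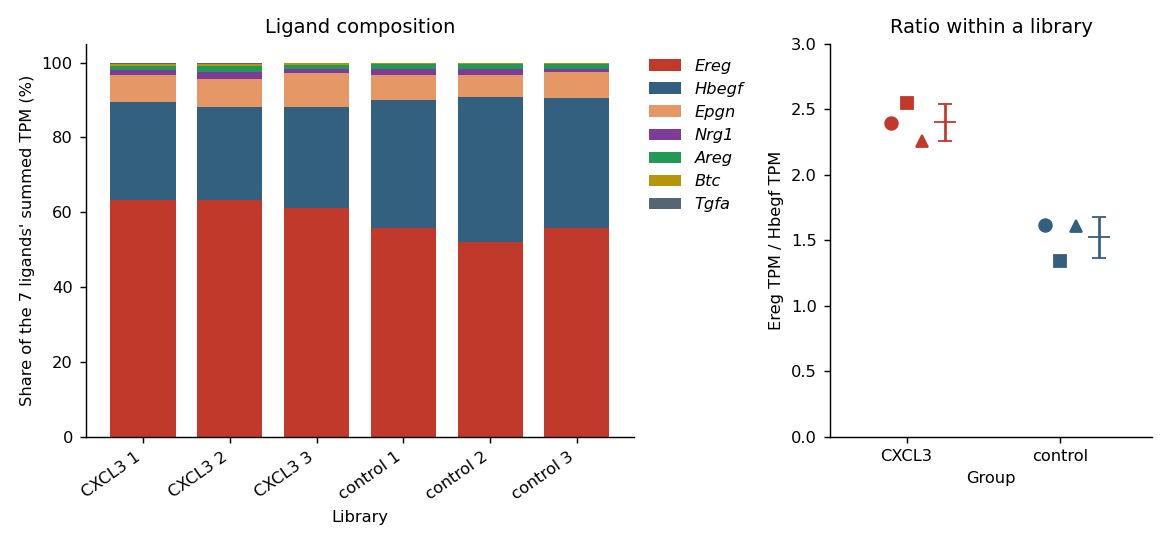
Left, share of each ligand in the summed TPM of the 7 EGF family ligands (%) for each library. Right, the ratio of Ereg to Hbegf TPM in each library with the mean ± SD of each group (n = 3 each). The ratio lies between 2.26 and 2.55 in the CXCL3 libraries and between 1.34 and 1.62 in the control libraries.

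Genes next to the chromosome 5 ligands include those of CXC chemokines, Cxcl3 among them. Within 400 kb of the ligand genes on either side lay 10 other protein-coding genes, of which 8 were tested and none passed (limma, 2 at an unadjusted p under 0.05, Ppbp and Cxcl1). Ppbp, the gene of a platelet chemokine precursor, had 27.6 ± 1.04 TPM with CXCL3 and 21.5 ± 2.70 TPM in controls. The gene of the chemokine Cxcl1 had 413 ± 13.5 TPM with CXCL3 and 469 ± 34.0 TPM in controls (SD, n = 3 each). Both had groups that did not overlap, 2 of the 8, where 17.2% of all genes tested had such groups. Mthfd2l, a gene of mitochondrial folate metabolism directly before Epgn, had 14.7 ± 2.43 TPM with CXCL3 and 16.1 ± 0.39 TPM in controls, with overlapping groups. Parm1, which follows Btc, had 3.86 ± 0.27 TPM with CXCL3 and 3.80 ± 0.67 TPM in controls.

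The genes that release, relay, dampen and answer EGF receptor signals were described by 4 lists. Of 59 genes listed, 56 were tested and none passed (limma, 1 at an unadjusted p under 0.05). Fold changes were positive for 47 and negative for 9, where 62.3% of all genes tested had a positive one. The positive count was 38 with median-of-ratios scaling, 45 with quantile normalization and 32 with correction for transcript length and GC content. Without controls 2 and 3 it was 11. The median for the 56 genes was 0.17 on the log2 scale, against 0.07 for all genes, and -0.12 without controls 2 and 3, against -0.08 for all genes. Groups did not overlap for 2 of the 56, where 17.2% of all genes did not. Control 1 was the highest control for 50 of the 56, which held for 62.8% of all genes tested. Without control 1, 29 of the 56 passed, all higher, where 25.2% of all genes passed as higher in that setting.

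Among the genes of ligand shedding (10 of 11 tested, 8 positive, median 0.17), the smallest p-values belonged to Adam9, Adam10 and Adam12, which encode membrane metalloproteases. Adam10, a main sheddase of EGF-like ligands, had 47.8, 46.4 and 44.1 TPM in CXCL3 libraries 1, 2 and 3 and 49.9, 33.4 and 35.3 TPM in control libraries 1, 2 and 3. Adam17, the sheddase that releases epiregulin, amphiregulin and heparin-binding EGF, had 33.8 ± 1.86 TPM with CXCL3 and 30.2 ± 7.08 TPM in controls (SD, n = 3 each). Control 1 exceeded the CXCL3 libraries in both genes. Rhbdf2, whose product iRhom2 escorts ADAM17 to the cell surface, had 40.8 ± 0.61 TPM with CXCL3 and 36.3 ± 7.10 TPM in controls. Among the adaptors and signal relays (22 of 22 tested, 17 positive, median 0.17), Gab2, Stat3 and Pik3ca had the smallest p-values (limma, adjusted p = 0.457, 0.462 and 0.472). Gab2, a docking adaptor, had 16.4 ± 0.78 TPM with CXCL3 and 12.5 ± 4.01 TPM in controls.

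Among the genes that attenuate the receptors (13 of 15 tested, 12 positive, median 0.16), the first were Ptpn1, Errfi1 and Spry4. Errfi1, whose product MIG6 binds and inhibits EGFR, had 53.2, 49.7 and 49.5 TPM in CXCL3 libraries 1, 2 and 3 and 50.8, 36.5 and 42.2 TPM in control libraries 1, 2 and 3. Control 1 lay inside the CXCL3 range (limma, adjusted p = 0.460). Among the early targets of receptor signalling (11 of 11 tested, 10 positive, median 0.18), Ccnd1, Fosl1 and Dusp4 came first. Ccnd1, which encodes cyclin D1, had 37.0, 34.4 and 33.8 TPM with CXCL3 and 32.5, 20.5 and 23.3 TPM in controls, without overlap (log2 fold change 0.47 ± 0.16 SE; limma, adjusted p = 0.362). Dusp4, which encodes a phosphatase of ERK, had 84.1, 82.7 and 75.6 TPM with CXCL3 and 90.1, 36.4 and 39.4 TPM in controls, so that control 1 was the highest of all 6. After correction for transcript length and GC content, the medians were 0.02, 0.02, -0.02 and 0.12 for the 4 lists in the order given.

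**Figure D4:**
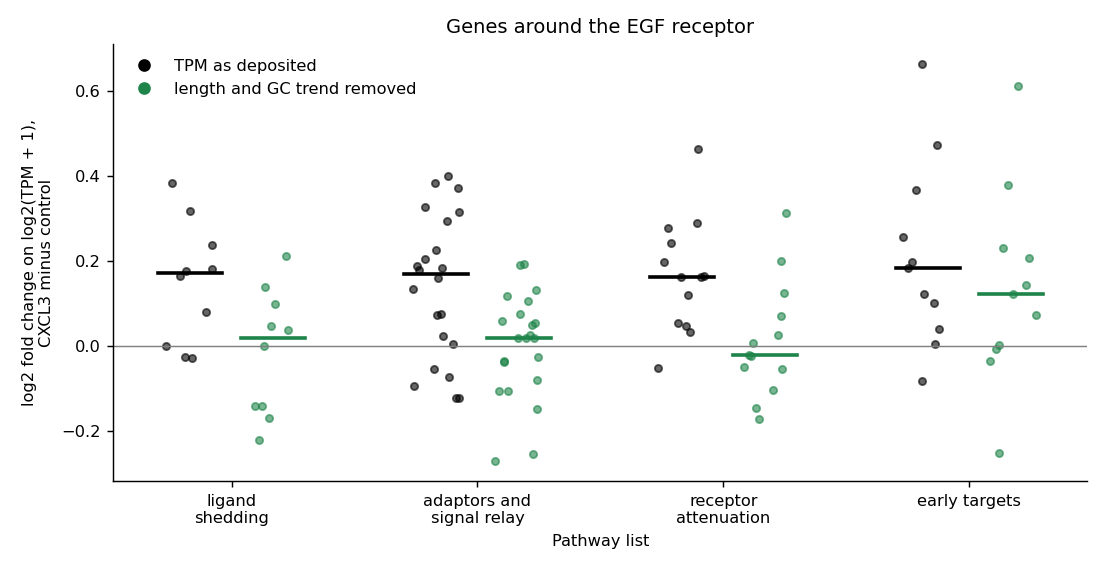
The log2 fold change on log2(TPM + 1), CXCL3 minus control, of the 56 tested genes in 4 lists around the EGF receptor, in black for TPM as deposited and in green with each library's trend in transcript length and GC content removed. Each point is a gene and each bar the median of a list. The medians lie between 0.16 and 0.18 as deposited and between -0.02 and 0.12 with the trend removed.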

How the data were processed

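RNA was sequenced from 3 CXCL3 and 3 control libraries, grouped by the treatment label. The authors deposited TPM values per gene, which keep no depth, and 0 columns of other samples were present. The submitters' processing notes name fastp, HISAT, RSEM and the build GRCm38.p5; annotation release and strand setting, not given in the sources used here, could change values of overlapping genes. Gene IDs were matched to GENCODE M21 (GRCm38, the same primary assembly as the patches named), which named 51719 of 51912 genes. No pair of columns was identical.

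Genes with at least 1 TPM in at least 3 libraries (13139) were fitted by limma 3.58.1 (R 4.3.3) after log2(TPM + 1) transformation (eBayes with trend, two-sided, CXCL3 minus control, Benjamini-Hochberg over all genes tested, threshold 0.05). A fold change on this scale understates that of low genes. Exact permutation was not used, since 3 against 3 allows no p under 0.1. The fit was tested on simulated data. There the noise was independent between genes and the planted changes were larger than those of the members. That run therefore does not bear on changes of their size or on trends shared across genes.

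The members, lists and tests were chosen with earlier results of these data known. All members are named, with the 3 genes of smallest p in each pathway list; Adam17, Rhbdf2 and the chromosome 5 neighbours were chosen after their values were seen. Alternatives were other pseudocounts, filters, scalings and variance priors, library weights, a replicate block, a loess correction of each library for length and GC content, and libraries left out.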

Additional observations from a re-analysis of the deposited data

How the results depend on the processing

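Over all genes, 21 passed (4 higher, 17 lower). The count was 5 with median-of-ratios scaling (0 higher, 5 lower), 1 with eBayes without trend, 12 with the replicate block, 43 with the length and GC trend removed (13 higher, 30 lower), 1446 with library weights (1046 higher, 400 lower), 84 without controls 2 and 3 (32 higher, 52 lower) and 0 with no filter (limma, 1928 at an unadjusted p under 0.05). Leaving out 1 library gave 0 to 4254 calls. The 4254 (3312 higher, 942 lower) came from dropping control 1. Dropping control 2 gave 10, dropping the third CXCL3 library 1, and dropping control 3, the first or the second CXCL3 library 0 each (limma, 875, 765 and 799 at an unadjusted p under 0.05). The estimation of library weights stopped before full convergence. Member calls were 2 with library weights and 0 to 3 with 1 library left out, and pathway calls 8 and 0 to 29, each highest without control 1. Of 124 recomputed member fold changes, 110 kept sign and side of the threshold, 5 newly passed and 9 changed sign, all in Egfr and Nrg1. Settings that alter only the filter, the variance prior or the block return the same fold change, so no sign could turn there. For Ereg, Epgn, Erbb2 and Hbegf, whose groups did not overlap, only settings that rescale the libraries could have turned the sign. The count of kept signs therefore says little of stability. Egfr was -0.028 with median-of-ratios scaling, -0.034 with quantile normalization, -0.22 with the trend removed, -0.45 without controls 2 and 3 and -0.12 to 0.30 with 1 library left out. Nrg1 was -0.16 without controls 2 and 3 and -0.033 to 0.36 with 1 library left out. The cause was not tested. The count of 4 tested members with groups that did not overlap, an alternative added after seeing the data, was 4 or 5 in every setting. Other pseudocounts, variance priors, weights, the block and libraries left out cannot make separated groups overlap. In those settings the count could not fall, so it says nothing of stability there. With median-of-ratios scaling, quantile normalization or the length and GC trend removed, where groups could come to overlap, it was 4. Same-numbered libraries deviated together little (correlations 0.12, -0.01 and 0.08). This cannot decide whether the numbers pair them, since control 1 stood apart from controls 2 and 3, and the labels do not say. The replicate block called 0 of 7 members (limma, 2 at an unadjusted p under 0.05). Over all genes, 1803 were past that unadjusted mark with the block and 1522 without it. Depth is unknown, so levels under 1 TPM are the least certain.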

Other observations

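The genes whose levels followed Ereg most closely over the 6 libraries, by Pearson correlation of log2(TPM + 1) among 12023 protein-coding genes tested, were Ctsl (0.998), Bub1b (0.997) and Anln (0.997). Ctsl encodes the lysosomal protease cathepsin L, Bub1b a kinase of the spindle checkpoint and Anln the cytokinesis protein anillin. Anln had 11.8, 12.7 and 10.6 TPM in CXCL3 libraries 1, 2 and 3 and 8.86, 5.39 and 7.02 TPM in control libraries 1, 2 and 3. A correlation above 0.9 with Ereg was reached by 1100 genes. The points are the same 6 libraries, which also differ in their trend with transcript length, so these values are a description.

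The ratio of Egfr to Erbb2 TPM was 4.46, 3.04 and 3.25 in CXCL3 libraries 1, 2 and 3 and 5.32, 4.15 and 4.80 in control libraries 1, 2 and 3, with overlapping groups. The ratio of Epgn to Hbegf was 0.269, 0.303 and 0.335 in CXCL3 libraries and 0.190, 0.152 and 0.200 in control libraries, without overlap. Both ratios were chosen after the values were seen and have no test.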
